A study of Homo sapiens with 34 samples.

Results

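The 9 human genes described here encode ligands, receptors and co-receptors of the vascular endothelial growth factor (VEGF) system. They were found by symbol in an expression table of 20255 genes, and all 9 were present, each on 1 row. There were 4 ligand genes (VEGFA, VEGFB, VEGFC and PGF), 3 receptor genes (KDR, FLT1 and FLT4) and 2 neuropilin genes (NRP1 and NRP2). The other VEGF ligand gene, VEGFD, had 0 rows in the table and is not analysed here. The levels were followed over 12 populations of H1 cells, an established line of human embryonic stem cells, along a differentiation towards blood without added haematopoietic cytokines. The populations were undifferentiated H1 cells with no treatment (1 sample), embryoid bodies (EBs) at day 0, which the labels list under BMP4 and hVEGF, and unsorted cells at days 2 and 4, listed under hVEGF. In the study's methods, day 0 is the start of EB attachment, BMP4 and hVEGF are added for the attachment up to day 2, and the medium after that holds hVEGF alone, so the day 2 cells had come from BMP4 and hVEGF and the label of the day 0 EBs may name the medium they were moved to. At days 6, 9 and 12 the hVEGF cultures were sorted into CD43- and CD43+ cells, and the day 16 cultures were sorted by CD45 as well. The day 16 populations, labelled CD43-CD45- and CD43+/CD45+, are written CD43- and CD43+ below. Each population apart from the undifferentiated cells had 3 replicates, which the study's methods describe as independent biological replicates, and all came from 1 cell line. Recombinant VEGF protein was thus present in the cultures from attachment onwards, and an RNA table does not measure it.

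VEGF ligands are secreted proteins that act through receptor tyrosine kinases on endothelial cells and their precursors. VEGFA signals mainly through KDR (VEGFR2), which also marks the mesoderm that gives rise to endothelium and blood, whereas FLT1 (VEGFR1) binds VEGFA, VEGFB and PGF with weak kinase activity and can be secreted as a decoy, and FLT4 (VEGFR3) is the receptor of VEGFC. Neuropilins are co-receptors that bind VEGF ligands together with these kinases, and semaphorins together with plexins. CD43, encoded by SPN, is a surface marker of early blood cells, and CD45, encoded by PTPRC, marks most later blood cells.

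The table lists the genes at these GRCh38 positions. The ligand VEGFA (ENSG00000112715) lies at chr6:43770184-43786487 on the plus strand, VEGFB (ENSG00000173511) at chr11:64234538-64238793 on the plus strand, VEGFC (ENSG00000150630) at chr4:176683538-176792727 on the minus strand and PGF (ENSG00000119630) at chr14:74941834-74955784 on the minus strand. The receptor KDR (ENSG00000128052) lies at chr4:55078477-55125589, FLT1 (ENSG00000102755) at chr13:28300344-28495128 and FLT4 (ENSG00000037280) at chr5:180601506-180649624, all on the minus strand. NRP1 (ENSG00000099250) lies at chr10:33177492-33336262 on the minus strand and NRP2 (ENSG00000118257) at chr2:205681990-205798133 on the plus strand. Each gene has 1 value per sample, so secreted and membrane-bound forms of FLT1 or the splice forms of VEGFA are not separated.

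The values are tag counts that the authors normalized for GC content and that were rounded to whole numbers. Each of the 34 samples held the same set of values in its own order (sum 17856940, median 197, highest 90700), so a value behaves like a rank within its sample, and sequencing depth cannot be read from it. High values are coarse: the whole table holds 153 distinct values above 10000, and KDR took 24 distinct values over the 34 samples. The sorts were checked on the genes of their markers. SPN lay between 18 and 328 in the CD43- samples of days 6 to 16 and between 2338 and 9460 in the CD43+ samples, and PTPRC on day 16 lay between 18 and 42 in CD43- and between 10084 and 15868 in CD43+ cells. Transcripts of blood cells were still present in later CD43- samples. Summed neutrophil markers were 54 to 88 on day 9, 118 to 7331 on day 12 and 6344 to 20587 on day 16. Summed megakaryocyte markers were 195 to 257 on day 9 and 4748 to 14545 on day 16. In day 16 CD43+ cells these sums were 156682 to 215571 and 25389 to 95552. The part of these transcripts in the day 12 and day 16 comparisons was not tested. Fold changes below were computed by limma on log2(value + 1), given with their standard error (SE) and a p-value adjusted over all 19788 genes tested, and a gene was called at an adjusted p-value below 0.05 with a fold change above 4. All 9 genes passed the filter on low values.

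**Figure D1:**
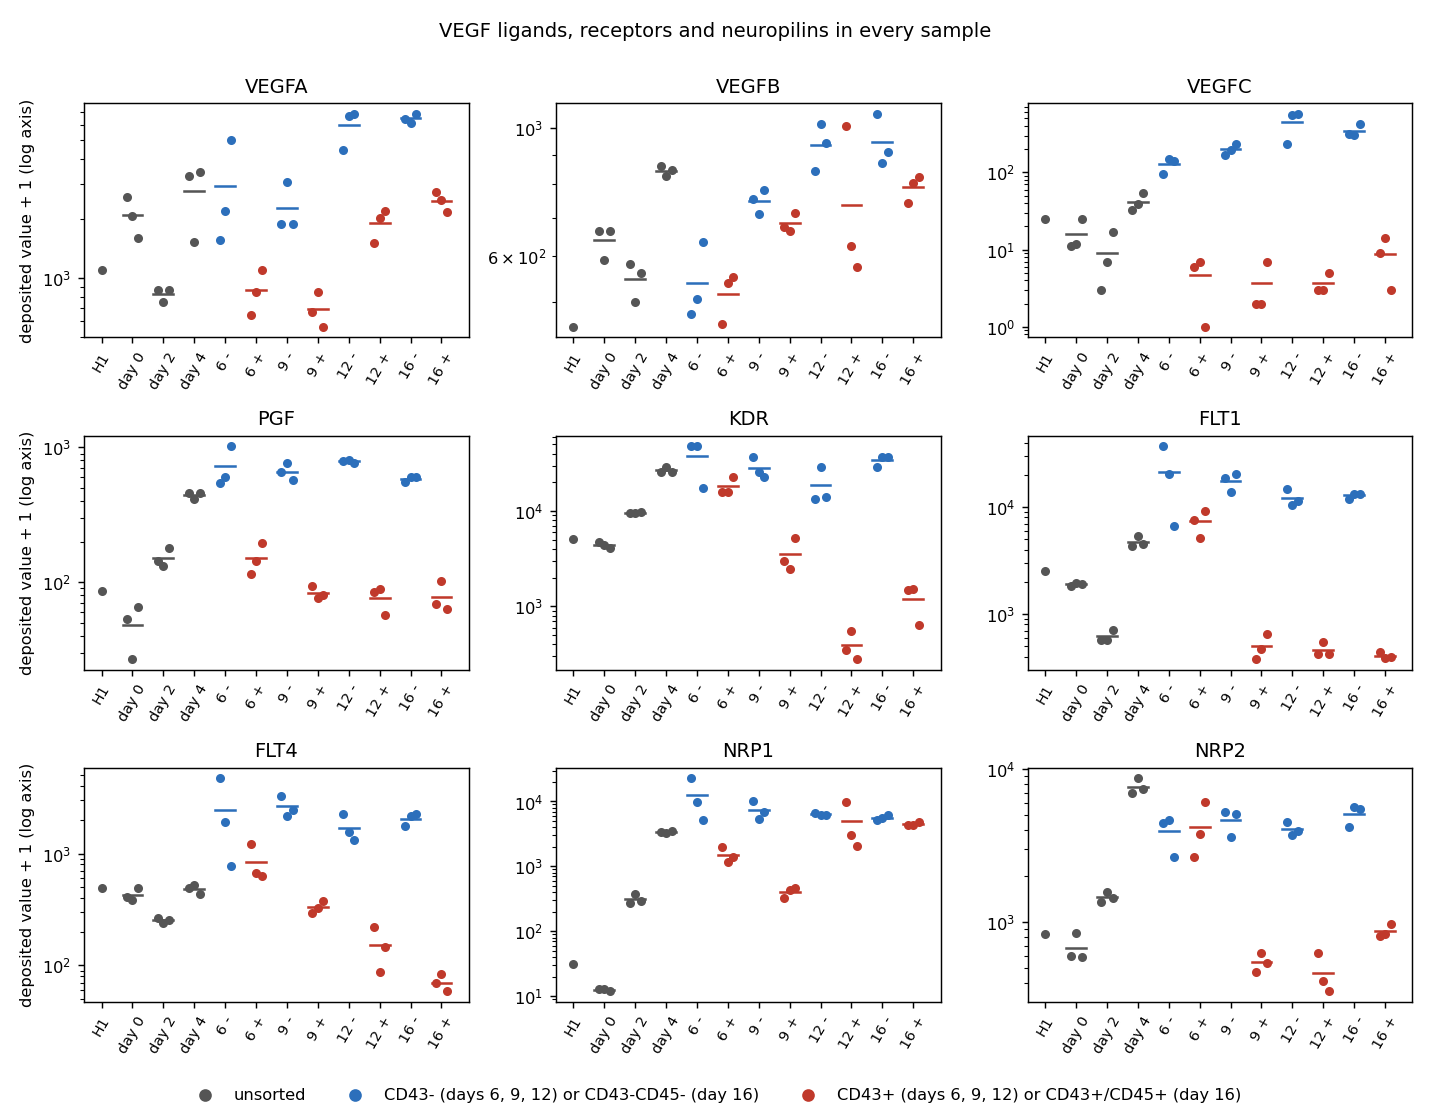
Deposited value + 1 (log axis) of each of the 9 genes in every sample, by population: H1 is the undifferentiated sample, - and + mark CD43- and CD43+ cells at the day given, points are samples and bars are means of 3 replicates. KDR, FLT1, FLT4 and NRP2 stood higher in CD43+ cells on day 6 than from day 9. On day 6 KDR, FLT1 and FLT4 were lower in CD43+ than in CD43- cells by less than 4-fold, and NRP2 was alike in both. VEGFC and PGF were already low in CD43+ cells on day 6, and NRP1 rose again in CD43+ cells on day 12.

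The comparison of CD43+ with CD43- cells of the same day asks which sorted fraction carried transcripts of the ligands and which those of the receptors. Most of the system was higher in the CD43- fraction. On day 6, 3 of 9 genes were called lower in CD43+ cells (VEGFC, PGF and NRP1), against 7.85% of all genes tested called lower and 12.5% called in either direction. On day 9, 7 of 9 were called lower, all but VEGFA and VEGFB, against 12.8% of all genes lower (21.5% in either direction). On days 12 and 16 the 6 genes VEGFC, PGF, KDR, FLT1, FLT4 and NRP2 were called lower, against 14.4% and 13.6% of all genes (26.2% and 25.8% in either direction). By limma 0 of 9 were called higher in CD43+ cells on any of the 4 days, also at an unadjusted p-value below 0.05. The median log2 fold change of the 9 genes was -1.27, -3.05, -3.38 and -2.94 on days 6, 9, 12 and 16, beside 0.14, 0.24, 0.22 and 0.14 over all genes. In sorted bulk samples, fewer cells that carry a transcript and less transcript per cell cannot be told apart. The samples of the 2 fractions did not overlap in 4, 8, 7 and 9 of the 9 genes on days 6, 9, 12 and 16, and of all genes 56.8%, 70.9%, 61.6% and 73% did not overlap.

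**Figure D2:**
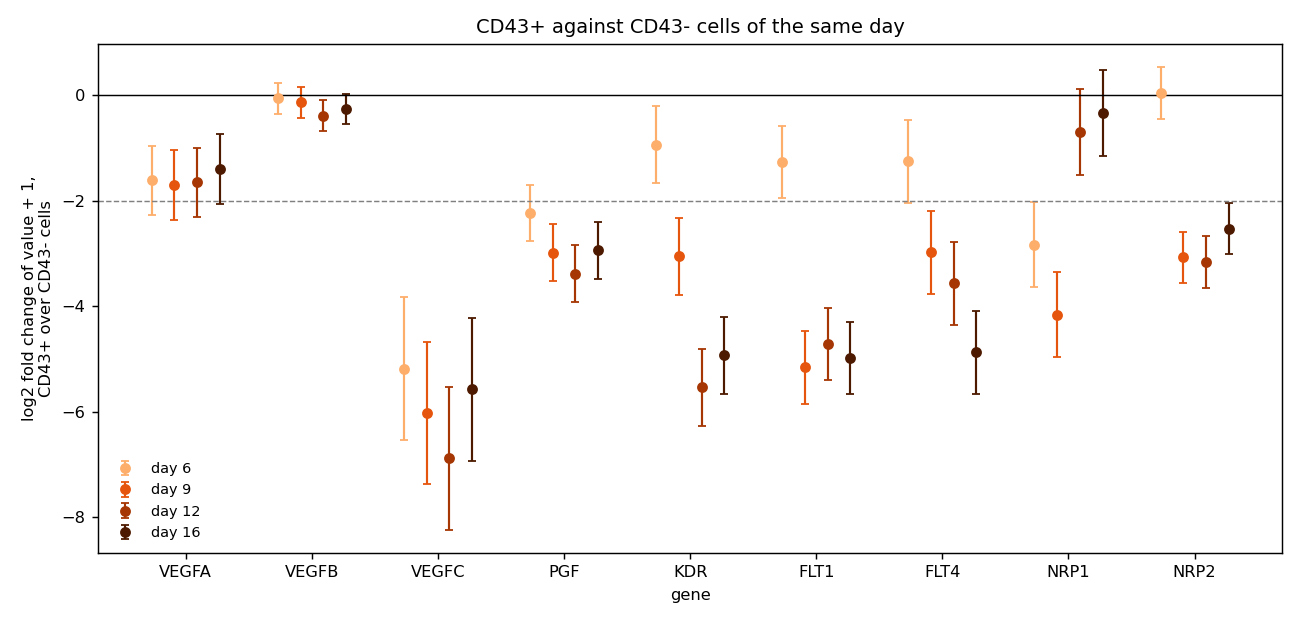
Log2 fold change of value + 1 in CD43+ over CD43- cells for each gene on days 6, 9, 12 and 16, with 95% intervals from limma (3 replicates per population); the solid line marks no difference and the dashed line a 4-fold lower value. VEGFC lay lowest on all 4 days, VEGFB stayed within 0.39 of 0, NRP2 went from 0.05 on day 6 to -3.07 on day 9, and NRP1 from -4.16 on day 9 to -0.69 on day 12.

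The 6 genes called lower on days 9, 12 and 16 share that course, and their RefSeq promoters (GRCh38.p14, 250 bases before to 50 bases after the start of transcription) are shown for the 5 of them that matched by symbol. Each is read 5′ to 3′ on the gene's strand, and capitals mark the ETS core GGAA or its other strand TTCC, the shared letters of binding sites of ETS factors, several of which are active in endothelial and blood precursors.
KDR, chr4:55125546-55125845, minus strand: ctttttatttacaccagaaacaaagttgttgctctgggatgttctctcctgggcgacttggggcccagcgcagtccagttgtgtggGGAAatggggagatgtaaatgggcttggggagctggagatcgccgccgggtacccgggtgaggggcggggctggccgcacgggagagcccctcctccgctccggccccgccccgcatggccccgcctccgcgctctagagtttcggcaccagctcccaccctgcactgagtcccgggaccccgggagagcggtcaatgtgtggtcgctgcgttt
FLT1, chr13:28495079-28495378, minus strand: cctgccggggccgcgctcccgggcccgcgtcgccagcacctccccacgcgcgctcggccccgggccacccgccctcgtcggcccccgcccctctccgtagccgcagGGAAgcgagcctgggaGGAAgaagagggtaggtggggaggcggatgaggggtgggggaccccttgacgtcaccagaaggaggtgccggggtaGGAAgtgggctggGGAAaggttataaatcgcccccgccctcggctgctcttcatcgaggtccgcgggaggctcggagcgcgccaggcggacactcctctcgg
NRP2, chr2:205682251-205682550, plus strand: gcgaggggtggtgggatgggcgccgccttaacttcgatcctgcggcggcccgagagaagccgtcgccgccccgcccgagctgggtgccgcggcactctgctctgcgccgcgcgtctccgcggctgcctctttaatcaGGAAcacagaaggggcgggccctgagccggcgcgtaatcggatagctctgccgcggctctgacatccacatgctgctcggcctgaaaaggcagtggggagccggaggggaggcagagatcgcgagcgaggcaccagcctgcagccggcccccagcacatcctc
VEGFC, chr4:176792873-176793172, minus strand: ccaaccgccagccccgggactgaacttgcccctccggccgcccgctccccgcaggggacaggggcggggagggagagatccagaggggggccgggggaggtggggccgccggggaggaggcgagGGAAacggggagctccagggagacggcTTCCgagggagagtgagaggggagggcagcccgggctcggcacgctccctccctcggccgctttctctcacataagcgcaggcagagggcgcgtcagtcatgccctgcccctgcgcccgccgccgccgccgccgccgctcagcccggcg
PGF, chr14:74955715-74956014, minus strand: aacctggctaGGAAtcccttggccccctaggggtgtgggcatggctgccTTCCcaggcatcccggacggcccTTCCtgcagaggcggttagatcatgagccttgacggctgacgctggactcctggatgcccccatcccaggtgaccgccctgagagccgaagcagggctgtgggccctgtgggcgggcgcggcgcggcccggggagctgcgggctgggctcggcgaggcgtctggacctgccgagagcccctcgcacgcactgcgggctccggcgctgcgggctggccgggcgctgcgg
The KDR and NRP2 windows held 1 ETS core each, VEGFC 2, PGF 3 and FLT1 4. Of 35116 RefSeq promoters of the same length 95.5% hold at least 1, and the median is 3, so only FLT1 lay above it. In FLT1 the cores began 144, 128, 52 and 39 bases before the start, and in KDR the core began 164 bases before it. On either strand, the hypoxia response core ACGTG (in 21.4% of all promoters), the GATA motif AGATAA (10.3%) and the E-box CAGCTG (17.9%) each had 0 matches in these 5 windows. These letters are a description of the windows and not of binding. The VEGFC window lies outside the interval of VEGFC in the table, upstream of it. PGF has a further RefSeq window, starting at 74955548, also with 3 ETS cores and 0 matches of the other motifs, and VEGFB has 1 ETS core. VEGFA, FLT4 and NRP1 were not matched.

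KDR rose at both early steps of the cultures. It was 5123 in undifferentiated H1 cells, 4777, 4370 and 4110 in day 0 EBs, 9485, 9485 and 9886 on day 2, and 25836, 29000 and 25836 on day 4. Every day 2 sample was above every day 0 sample, and every day 4 sample above every day 2 sample. The log2 fold changes were 1.12 (SE 0.36, adjusted p = 0.0144) at the step to day 2 and 1.48 (SE 0.36, adjusted p = 0.00165) at the step to day 4, both under 4-fold.

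On day 6 KDR was high in both fractions, at 48030, 48030 and 17338 in CD43- cells and 15842, 15842 and 22812 in CD43+ cells. The ranges overlapped only through CD43- replicate 3 (17338). The log2 fold change was -0.93 (SE 0.36, adjusted p = 0.0305), and it ranged from -1.42 to -0.69 when 1 replicate was left out. CD43- cells kept KDR between 13311 and 37166 over days 9, 12 and 16, with values of 37166, 25836 and 22812 on day 9, 13311, 29000 and 14002 on day 12, and 29000, 37166 and 37166 on day 16. In CD43+ cells KDR was 2974, 2484 and 5188 on day 9, 350, 549 and 280 on day 12, and 1485, 1506 and 634 on day 16. In CD43+ cells it thus fell to day 9 and again to day 12, and was higher on day 16. The log2 fold change was -2.41 from day 6 to day 9 (SE 0.36, adjusted p = 7.45e-06), -3.16 to day 12 (SE 0.36, adjusted p = 3.32e-08) and 1.57 to day 16 (adjusted p = 0.000887, under 4-fold). Against CD43- cells of the same day it was 8.30-fold lower on day 9, 46.4-fold lower on day 12 and 30.4-fold lower on day 16. In the order of the 11 replicated populations by mean, the 6 highest (all CD43- populations, day 4 and day 6 CD43+ cells) each overlapped their neighbour, and day 2, day 0, day 9 CD43+, day 16 CD43+ and day 12 CD43+ cells followed, of which day 0 and day 9 CD43+ cells overlapped and the others did not.

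FLT1 took another early course, with a dip before the rise. It was 2506 in undifferentiated cells, 1814, 1962 and 1908 on day 0, 571, 570 and 712 on day 2, and 4323, 5396 and 4538 on day 4. The fall to day 2 was 1.62 on the log2 scale (SE 0.33, adjusted p = 0.000362) and under 4-fold, and the rise to day 4 was 7.69-fold (log2 2.94, SE 0.33, adjusted p = 7.42e-08). On day 6 FLT1 was 37162, 20387 and 6688 in CD43- cells and 7622, 5186 and 9227 in CD43+ cells. The CD43- replicates differed more among themselves than the means of the fractions did, and the log2 fold change was -1.27 (SE 0.33, adjusted p = 0.00255), under 4-fold, and -1.95 without CD43- replicate 3.

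From day 9 the fractions parted. FLT1 was 18748, 13994 and 20387 in CD43- cells on day 9, 14665, 10423 and 11495 on day 12, and 11992, 13308 and 13308 on day 16. In CD43+ cells it was 380, 473 and 649, then 422, 542 and 424, then 442, 385 and 394 on the same days. It had fallen 14.6-fold in CD43+ cells from day 6 to day 9 (log2 -3.87, SE 0.33, adjusted p = 1.49e-09) and stayed at that level, with log2 changes of -0.09 and -0.18 at the next steps (adjusted p = 0.843 and 0.703). CD43+ cells were 35.7-fold, 26.2-fold and 31.6-fold below CD43- cells on days 9, 12 and 16. The populations with the lowest means (days 9, 12 and 16 CD43+ and day 2) overlapped in order, and the day 0, day 4 and day 6 CD43+ populations lay above them.

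FLT4 rose late and fell slowly. It was 488 in undifferentiated cells, 409, 385 and 493 on day 0, 262, 239 and 256 on day 2, and 488, 518 and 431 on day 4, and neither of the early steps passed the test (adjusted p = 0.128 and 0.062). In CD43- cells it was 4710, 1921 and 778 on day 6, 3276, 2184 and 2438 on day 9, 2263, 1554 and 1308 on day 12, and 1756, 2144 and 2262 on day 16. FLT4 alone of the 9 was called between day 4 and day 6 CD43- cells, where 7.71% of all genes were, at 4.01-fold higher (SE 0.38 on the log2 scale, adjusted p = 0.000129), and on that scale it was 1.35 without CD43- replicate 1 and 1.93 without day 4 replicate 3, both under 4-fold. FLT1 (3.63-fold, adjusted p = 6.29e-05) and NRP1 (3.12-fold, adjusted p = 0.00143) also rose at this step, whereas VEGFB and NRP2 fell. Without CD43- replicate 3 FLT1 and NRP1 were called too (log2 2.54 and 2.14). In CD43+ cells FLT4 was 1228, 669 and 633 on day 6, 294, 326 and 372 on day 9, 218, 86 and 146 on day 12, and 68, 82 and 58 on day 16. Each of these steps was lower at an adjusted p-value below 0.05 (log2 -1.29, -1.23 and -1.02) and under 4-fold, and the samples of each day did not overlap those of the next. The difference between the fractions on day 6 was -1.25 (adjusted p = 0.00799), but -0.60 without CD43- replicate 1, where it no longer passed the test (adjusted p = 0.138), and -1.90 without CD43- replicate 3. CD43+ cells were 7.86-fold, 11.8-fold and 29.3-fold lower on days 9, 12 and 16. The 4 CD43- populations overlapped in order at the top, and FLT4 had the most separated order of the 9 genes, with 4 of 10 neighbours overlapping.

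NRP1 had the widest range of the 9 genes on the log2(value + 1) scale. It was 30 in undifferentiated cells, 12, 12 and 11 on day 0, 271, 378 and 289 on day 2, and 3394, 3276 and 3448 on day 4. It was the only one of the 9 genes called from day 0 to day 2, where 4.4% of all genes were called higher and 7.88% in either direction, with a rise of 24.5-fold (log2 4.62, SE 0.40, adjusted p = 5.29e-10). The rise from day 2 to day 4 was 10.9-fold (log2 3.44, SE 0.40, adjusted p = 9.34e-08). In CD43- cells NRP1 was 22806, 9712 and 5244 on day 6, 10073, 5396 and 6810 on day 9, 6575, 6238 and 6238 on day 12, and 5120, 5549 and 6238 on day 16, and no step among these passed the test.

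In CD43+ cells NRP1 fell and then returned. It was 1982, 1178 and 1384 on day 6 and 323, 428 and 469 on day 9, a fall of 1.88 on the log2 scale (SE 0.40, adjusted p = 0.000591) that was under 4-fold. On day 12 it was 9882, 3010 and 2032, 9.75-fold above day 9 (log2 3.29, SE 0.40, adjusted p = 9.84e-08; 2.62 without day 12 CD43+ replicate 1), and on day 16 it was 4283, 4323 and 4775. Against CD43- cells it was called lower on day 6 (log2 -2.83, SE 0.40, adjusted p = 1.36e-06) and day 9 (-4.16, SE 0.40, adjusted p = 7.83e-10), 7.11-fold and 17.8-fold. On day 12 the difference was -0.69 (95% interval -1.51 to 0.12, adjusted p = 0.122) and the ranges overlapped. Without CD43+ replicate 1, the highest, it was -1.36 and passed the test (adjusted p = 0.0011). On day 16 the difference was -0.33 (-1.15 to 0.48, adjusted p = 0.468), with the 3 CD43+ samples just below the 3 CD43- samples. In the order of the populations the 4 CD43- populations and the day 12 and day 16 CD43+ cells overlapped in turn, and day 4, day 6 CD43+ and day 9 CD43+ cells lay below them without overlap, the last beside day 2.

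The day 12 CD43+ replicates that were high in NRP1 were also high in macrophage markers. The summed value of 6 macrophage markers (CD14, CSF1R, CD163, C1QA, C1QB and MRC1) was 75650, 22939 and 17992 in the replicates whose NRP1 was 9882, 3010 and 2032. It was 53355 to 61006 in day 16 CD43+ cells, 2639 to 3095 on day 9 and 801 to 1209 on day 6, when C1QA and C1QB were listed at 0 in all 3 replicates. From day 9 to day 12 all 6 of these markers were called higher in CD43+ cells, with a median log2 fold change of 6.10. Of all genes 15% were called in either direction at that step. On day 6 NRP1 was between 1178 and 1982 at the lowest marker sums, above its day 9 values. Markers of other blood cells also moved at that step. The summed value of 6 neutrophil markers ranged over 22484 to 30484 on day 9 and 190337 to 218073 on day 12, with 5 of 6 called higher, that of 7 mast cell and eosinophil markers over 2198 to 5446 and 27414 to 57903, with 4 of 7 called higher, and that of 6 erythroid markers over 117038 to 197874 and 5198 to 13489, with all 6 called lower. Over the day 12 replicates, in the order above, the neutrophil sum was 190337, 190886 and 218073. It was nearly the same where NRP1 was 9882 and where it was 3010. The mast cell and eosinophil sum was 27414, 57903 and 57008, lowest where NRP1 was highest. The order of these sums over 3 replicates was not tested. The part of these cell types in the NRP1 rise was not tested.

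**Figure D3:**
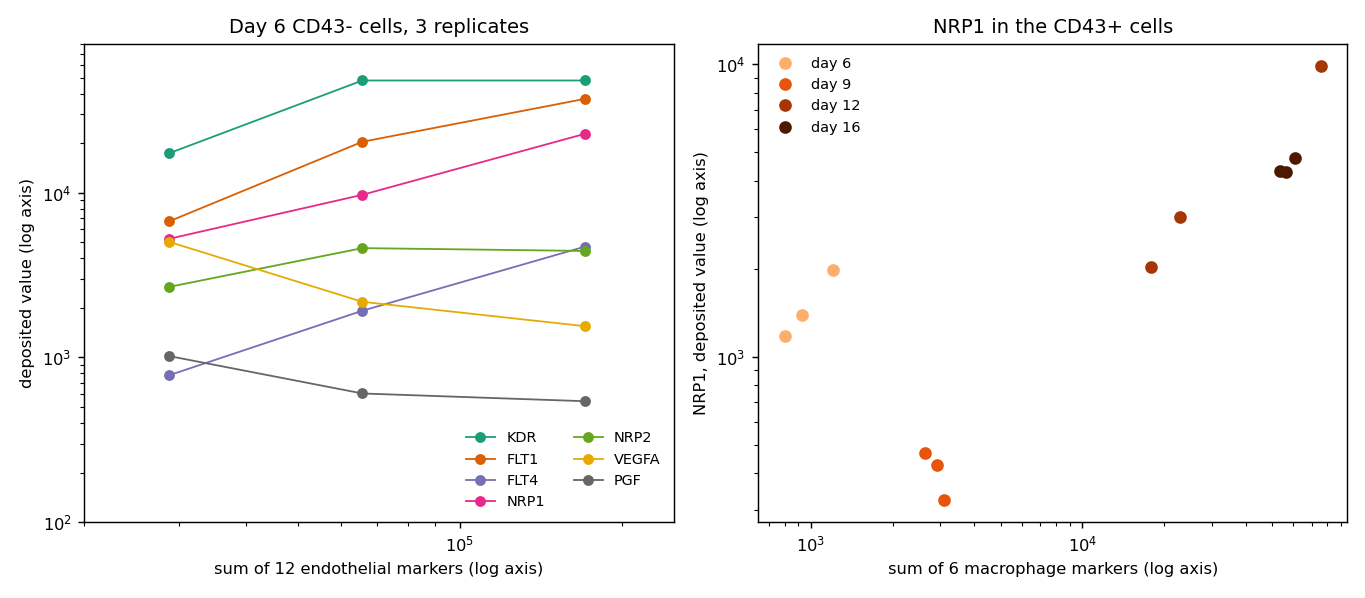
Left, deposited values (log axis) of 7 of the genes in the 3 replicates of day 6 CD43- cells against the summed value of 12 endothelial markers (log axis), with lines joining a gene's replicates. FLT1, FLT4 and NRP1 were highest and VEGFA and PGF lowest in the replicate with the largest sum. Right, NRP1 (log axis) in each CD43+ sample against the summed value of 6 macrophage markers (log axis), coloured by day. The day 12 and day 16 samples lie at the upper right and the day 9 samples lowest.

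NRP2 had no difference past the test between the fractions on day 6 and was called lower in CD43+ cells from day 9. It was 830 in undifferentiated cells, 596, 854 and 592 on day 0, 1355, 1570 and 1431 on day 2, and 6918, 8680 and 7332 on day 4, its highest population, which did not overlap the next. The rise from day 2 to day 4 was 5.25-fold (log2 2.39, SE 0.24, adjusted p = 7.28e-09). On day 6 it was 4430, 4610 and 2678 in CD43- cells and 2652, 3755 and 6070 in CD43+ cells, with a difference of 0.05 on the log2 scale (95% interval -0.44 to 0.54, adjusted p = 0.891). The sign of this small value turned with another scaling of the samples (-0.12).

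In the CD43- cells of days 9, 12 and 16 NRP2 was 5194, 3612 and 5040, 4478, 3686 and 3941, and 4154, 5641 and 5483. In CD43+ cells it was 474, 624 and 536, then 625, 414 and 354, then 814, 840 and 978. The fall in CD43+ cells from day 6 to day 9 was 7.24-fold (log2 -2.86, SE 0.24, adjusted p = 8.19e-10), and the CD43+ cells were 8.40-fold, 8.90-fold and 5.76-fold below the CD43- cells on days 9, 12 and 16. From day 12 to day 16 NRP2 rose by 0.95 in CD43+ cells (adjusted p = 0.00213, under 4-fold).

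Among the ligands, VEGFC had the widest gap between the fractions. It was low early, at 24 in undifferentiated cells, 10, 11 and 24 on day 0, 2, 6 and 16 on day 2, and 32, 38 and 53 on day 4. In CD43- cells it was 94, 149 and 140 on day 6, 166, 197 and 232 on day 9, 230, 560 and 570 on day 12, and 317, 304 and 422 on day 16. In CD43+ cells it was 5, 6 and 0 on day 6, 1, 1 and 6 on day 9, 2, 2 and 4 on day 12, and 8, 13 and 2 on day 16. No CD43+ sample exceeded 13 and no CD43- sample of days 6 to 16 was below 94. The log2 fold changes were -5.18 (SE 0.66, adjusted p = 3.12e-07), -6.02 (adjusted p = 9.93e-09), -6.88 (adjusted p = 5.9e-10) and -5.58 (adjusted p = 2.97e-08) on days 6, 9, 12 and 16. At values this low the size of the fold depends on the 1 added to each value, and 1 replicate could move it, to -4.28 without day 6 CD43+ replicate 3, -6.63 without day 9 CD43+ replicate 3 and -4.94 without day 16 CD43+ replicate 3.

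The rise of VEGFC from day 2 to day 4 was called at 5.80-fold (log2 2.54, SE 0.66, adjusted p = 0.00332), was 1.91, under 4-fold, without day 2 replicate 1 and 3.17 without day 2 replicate 3, and was 1.56 with a pseudocount of 10. VEGFC was the only gene of the 9 called between day 4 and day 6 CD43+ cells (log2 -3.56, SE 0.66, adjusted p = 5.99e-05), a comparison that called 7.73% of all genes lower and 14.5% in either direction. It was -2.67 without day 6 CD43+ replicate 3, and with a pseudocount of 10 in place of 1 it was -1.91, under 4-fold, so that no gene of the 9 was called. Without day 4 replicate 2, VEGFA was called there too (-2.01). Against day 6 CD43- cells the day 4 value was lower, with a log2 rise of 1.62 (SE 0.66, adjusted p = 0.0473) that was under 4-fold.

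PGF, a ligand that binds FLT1, parted between the fractions on day 6 as well. It was 85 in undifferentiated cells, 52, 26 and 64 on day 0, 142, 131 and 178 on day 2, and 456, 414 and 460 on day 4. Both steps rose under 4-fold (log2 1.73 and 1.56, adjusted p = 7.5e-06 and 2.71e-05). In CD43- cells PGF was 542, 604 and 1020 on day 6, 654, 760 and 567 on day 9, 786, 810 and 764 on day 12, and 552, 604 and 602 on day 16, and these populations overlapped in order. In CD43+ cells it was 115, 142 and 194 on day 6, 92, 75 and 80 on day 9, 84, 88 and 56 on day 12, and 68, 102 and 62 on day 16. PGF was 4.70-fold lower in CD43+ cells on day 6 (log2 -2.23, SE 0.26, adjusted p = 8.25e-08), and 7.91-fold, 10.4-fold and 7.67-fold lower on days 9, 12 and 16. Without CD43- replicate 3 the day 6 difference was -1.95, under 4-fold.

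VEGFA was present in both fractions. It was 1090 in undifferentiated cells, 2586, 2066 and 1582 on day 0, 868, 746 and 865 on day 2, and 3301, 1518 and 3456 on day 4. In CD43- cells it was 1547, 2176 and 5038 on day 6, 1865, 3084 and 1872 on day 9, 4476, 6697 and 6818 on day 12, and 6466, 6140 and 6818 on day 16. In CD43+ cells it was 643, 846 and 1091 on day 6, 670, 840 and 560 on day 9, 1500, 2018 and 2186 on day 12, and 2745, 2499 and 2157 on day 16. On each day the 3 CD43+ samples lay below the 3 CD43- samples, with log2 fold changes of -1.61, -1.70, -1.65 and -1.40 (SE 0.32 each, adjusted p = 0.000145, 4.33e-05, 5.49e-05 and 0.000392), all under 4-fold. It rose in both fractions from day 9 to day 12, by 1.42 in CD43- cells (adjusted p = 0.00113) and 1.46 in CD43+ cells (adjusted p = 0.000356), so that the difference between the fractions changed by 0.05 (95% interval -0.88 to 0.98). In the order of the populations, 9 of 10 neighbours overlapped, and day 6 CD43+, day 2 and day 9 CD43+ cells stood apart at the bottom.

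VEGFA is a classic target of hypoxia, and 13 other genes induced by hypoxia were followed beside it. Their summed value was 160948 to 285017 on day 0 and 56038 to 64710 on day 2, a step at which VEGFA fell by 1.30 (SE 0.32, adjusted p = 0.00205), and 5 of the 13 were called lower, with LDHA, a glycolytic enzyme, falling most (log2 -3.10, adjusted p = 1.22e-10). Of all genes 7.88% were called in either direction there. In day 6 CD43- cells the sums were 46400, 53583 and 77134 in the replicates with VEGFA at 1547, 2176 and 5038. In day 9 CD43+ cells, by contrast, the sums were 125473 to 132050 and VEGFA was at its lowest population mean, 690. From there to day 12 VEGFA rose by 1.46 in CD43+ cells, and the sums on day 12 were lower, at 62387 to 77696. From day 2 to day 4 VEGFA rose by 1.65 (SE 0.32, adjusted p = 0.000176), and the sums on day 4 were lower, at 48645 to 51688. In day 12 CD43- replicates with VEGFA at 4476, 6697 and 6818 the sums were 76182, 114981 and 71281. Of the 13, CD43+ cells had 2, 4, 1 and 3 genes called lower and 0 called higher on days 6, 9, 12 and 16, or 15.4%, 30.8%, 7.69% and 23.1% lower against 7.85%, 12.8%, 14.4% and 13.6% of all genes, with medians of -0.62, -0.29, -0.91 and -0.24. The largest falls were in ADM, a vasodilator peptide (-3.53 on day 6), NDRG1 (-2.80 on day 9) and the glucose transporter gene SLC2A1 (-4.83 on day 12 and -6.64 on day 16). Of 8 genes of oxygen sensing, EPAS1, which encodes a hypoxia-inducible factor of endothelium, was called lower on every day (log2 -2.29, -4.64, -4.15 and -3.70), and only EGLN3 joined it, on day 12. The part of oxygen in the VEGFA values was not tested.

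VEGFB varied least. Over the 34 samples it lay between 452 and 1057, with population means from 516 in day 6 CD43+ cells to 945 in day 16 CD43- cells, 1.83-fold apart. The CD43+ to CD43- difference was -0.06, -0.13, -0.39 and -0.26 on days 6, 9, 12 and 16 (SE 0.14 each), with an adjusted p-value below 0.05 only on day 12 (0.0183). On day 12 the CD43+ replicates were 1007, 624 and 574 and the CD43- replicates 842, 1014 and 942, so the ranges overlapped.

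Along time, most called rises fell at the step to day 4 and most called falls in CD43+ cells after day 6. From day 2 to day 4 the 4 genes VEGFC, FLT1, NRP1 and NRP2 were called higher, against 4.97% of all genes called higher (9.5% in either direction), and 8 of 9 were higher at an adjusted p-value below 0.05, all but FLT4 (0.92, adjusted p = 0.062), as 36.1% of all genes passed it in either direction. Between successive days in CD43- cells 0 of 9 were called (days 6 to 9, 9 to 12 and 12 to 16, where 1.75%, 7.33% and 10.4% of all genes were called by limma), and 1 of 9 had an adjusted p-value below 0.05 at each step, as 6.65%, 36.7% and 45.6% of all genes had. That gene was VEGFB from day 6 to day 9 (log2 0.48, adjusted p = 0.037), VEGFA from day 9 to day 12, and KDR from day 12 to day 16 (log2 0.96, adjusted p = 0.029). At an unadjusted p-value below 0.05, VEGFB joined VEGFA from day 9 to day 12. In CD43+ cells KDR, FLT1 and NRP2 were called lower from day 6 to day 9 (3.97% of all genes lower, 7.53% in either direction), KDR lower and NRP1 higher from day 9 to day 12 (15% in either direction), and 0 of 9 from day 12 to day 16 (9.05%). At that last step 3 genes, KDR, FLT4 and NRP2, had an adjusted p-value below 0.05 (0.000887, 0.0339 and 0.00213), as 42.4% of all genes had, and the same 3 an unadjusted one.

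**Figure D4:**
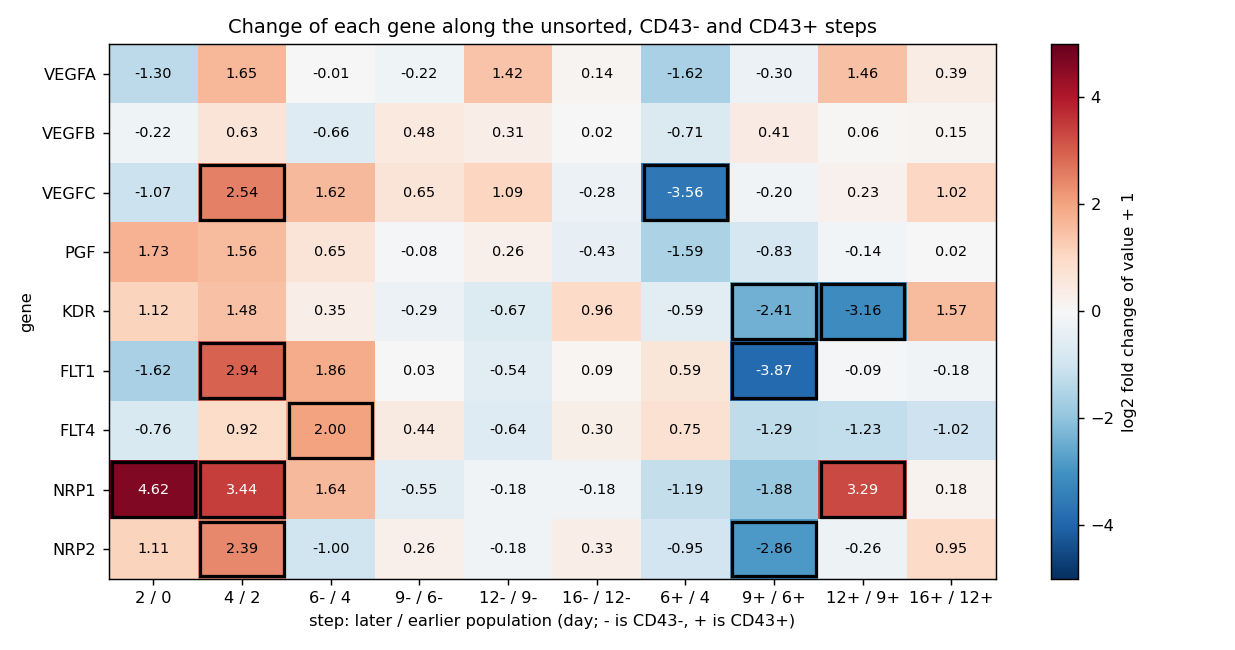
Log2 fold change of value + 1 of each gene at each step, later over earlier population, with the number printed in the cell and black frames on called changes (adjusted p-value below 0.05 and above 4-fold, 3 replicates per population). Neighbouring steps share a population. Frames gather at day 4 over day 2 and in the CD43+ steps to days 9 and 12, and the CD43- steps after day 6 hold 0 frames.

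The change of the CD43 difference itself was tested. From day 6 to day 9 it moved down for KDR by 2.12 (SE 0.50, adjusted p = 0.00371), for FLT1 by 3.89 (SE 0.47, adjusted p = 1.95e-06) and for NRP2 by 3.12 (SE 0.34, adjusted p = 3.89e-07), 3 of 9 genes against 4.18% of all genes called lower and 7.39% in either direction. The call of KDR was lost when 1 of 4 samples was left out, at -1.63 without day 6 CD43- replicate 3, -1.94 without day 6 CD43+ replicate 3, -1.91 without day 9 CD43- replicate 1 and -1.90 without day 9 CD43+ replicate 2. FLT1 was -3.21 without day 6 CD43- replicate 3. FLT4 moved by -1.72 (SE 0.54, adjusted p = 0.0261), under 4-fold, by -2.37 without day 6 CD43- replicate 1, and by -1.07 without day 6 CD43- replicate 3, where it did not pass the test (adjusted p = 0.0924). The 4 ligands moved by -0.09, -0.07, -0.84 and -0.75 for VEGFA, VEGFB, VEGFC and PGF, with no adjusted p-value below 0.05. From day 9 to day 12 the difference of KDR widened by a further 2.48 (SE 0.50, adjusted p = 0.0005) and that of NRP1 closed by 3.46 (SE 0.56, adjusted p = 3.63e-05), or 2.80 without day 12 CD43+ replicate 1, and 9% of all genes were called. From day 12 to day 16 none of the 9 was called by limma, 5.03% of all genes were, and FLT4 alone had an unadjusted p-value below 0.05 (0.0223). These steps share samples, those of day 9 and then those of day 12.

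The CD43- replicates of day 6 stood further apart in FLT1, FLT4 and NRP1 than the CD43- replicates of any other day, and endothelial markers moved with them. Over the 3 replicates the summed value of 12 endothelial markers was 171051, 65858 and 28735, while FLT1 was 37162, 20387 and 6688, FLT4 4710, 1921 and 778, and NRP1 22806, 9712 and 5244. KDR was 48030, 48030 and 17338 in these replicates. VEGFA ran the other way, at 1547, 2176 and 5038, and so did PGF and the sum of 10 mesenchymal markers, at 202247, 214681 and 250050. The part of endothelial cell content in these differences was not tested.

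Endothelial and mesenchymal transcripts were lower in the CD43+ fraction together with the VEGF genes. Of all genes 7.85%, 12.8%, 14.4% and 13.6% were called lower in CD43+ cells on days 6, 9, 12 and 16. Of the 12 endothelial markers 1, 7, 7 and 8 were called lower on those days, near that share on day 6, and 0 higher, with medians of -1.30, -3.05, -3.23 and -3.23. Their sum ranged over 28735 to 171051, 36986 to 74130, 27166 to 31552 and 44356 to 52697 in CD43- cells, and over 30431 to 38126, 16029 to 17480, 8276 to 11504 and 12399 to 16330 in CD43+ cells. On day 6, when KDR, FLT1, FLT4 and NRP2 were not called, the endothelial sums of CD43+ cells lay within the range of CD43- cells. This rests on CD43- replicate 3 (28735), and the CD43+ sums lay below those of CD43- replicates 1 and 2 (171051 and 65858). Of the 10 mesenchymal markers 7, 10, 10 and 10 were called lower. In CD43+ cells their sum was 59694 to 156322 on day 6 and 4382 to 22264 on day 9. It was higher again on day 12, at 21369 to 46284, and 7753 to 16254 on day 16. In all CD43- samples it was 202247 to 329420. None of the endothelial or mesenchymal markers was listed at 0 in any sorted sample. The replicate of day 6 CD43+ cells with the largest mesenchymal sum (156322) also had the largest NRP2 value (6070). The part of these cell types in the VEGF gene differences was not tested.

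Other genes of the pathway were counted from lists. Beside their counts, 7.85%, 12.8%, 14.4% and 13.6% of all genes were called lower in CD43+ cells on days 6, 9, 12 and 16, and 4.68%, 8.65%, 11.8% and 12.2% higher. Of 12 partners of the neuropilins, the semaphorins and plexins, 4, 9, 10 and 8 were called lower in CD43+ cells on days 6, 9, 12 and 16 and 0 higher, with medians of -1.46, -2.64, -3.26 and -2.51. The largest falls were in the semaphorin SEMA3A on day 6 (log2 -4.39, SE 0.34, adjusted p = 5.07e-11), the plexin PLXNA2 on day 9 (-5.17, SE 0.32, adjusted p = 1.46e-13), SEMA3E on day 12 (-6.13, SE 0.41, adjusted p = 6.3e-13) and SEMA3F on day 16 (-4.64, SE 0.24, adjusted p = 2.91e-15). On days 12 and 16 NRP1 was not called, whereas SEMA3A, SEMA3E, SEMA3F and PLXNA2 of this list were called lower, as was NRP2. PLXNA2 had risen from day 0 to day 2 (log2 7.06, SE 0.32, adjusted p = 9.77e-16), the step at which NRP1 rose, and SEMA3C from day 2 to day 4 (3.90, SE 0.36, adjusted p = 2.23e-09).

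The signalling genes downstream of the receptors were called at shares near or below those of all genes on days 6, 9 and 12 and slightly above on day 16. Of 34 such genes 2, 4, 4 and 5 were called higher and 0, 2, 5 and 5 lower in CD43+ cells, in all 5.88%, 17.6%, 26.5% and 29.4% against 12.5%, 21.5%, 26.2% and 25.8% of all genes, and the medians were -0.18, 0.01, 0.07 and 0.12, near those of all genes. Those higher were led by SH2D2A, an adaptor that binds KDR and is also used in T cells (log2 4.12 on day 6 and 5.08 on day 9), and on day 16 by the protein kinase C gene PRKCA (2.76, SE 0.17, adjusted p = 6.01e-14). NOS3, the endothelial nitric oxide synthase, fell most on days 9, 12 and 16 (-2.72, -3.40 and -3.46).

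Of 19 phosphatases, partners and trafficking genes of the receptors 3, 9, 8 and 6 were called lower and 2, 2, 2 and 3 higher. The proteoglycan gene SDC2 fell most on days 6 and 9 (-4.39 and -5.56), the ephrin EFNB2, which guides receptor uptake, on day 12 (-5.40) and the glypican GPC1 on day 16 (-6.20). The integrin ITGB3, also a platelet gene, rose most on days 6, 9 and 12 (6.14, 7.64 and 6.01), and the blood phosphatase PTPN6 on day 16 (3.89). From day 2 to day 4 the cadherin CDH5 of endothelial junctions rose by 7.06 (SE 0.37, adjusted p = 3.55e-14).

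Of 14 genes known to be induced by VEGF in endothelium 4, 5, 5 and 4 were called lower in CD43+ cells and 0, 1, 0 and 4 higher. ESM1, a secreted product of endothelial tip cells, fell most on every day (-4.39, -7.39, -7.31 and -7.70, SE 1.31 each). The genes higher on day 16 were the immediate early genes NR4A2 (4.54), NR4A3 (3.58), EGR2 (5.28) and EGR3 (4.70), which many stimuli induce. From day 12 to day 16 these 4, with NR4A1, DUSP5 and ICAM1, were called lower in CD43- cells, where the list had a median of -1.65 and its summed value went from a range of 23349 to 30471 to one of 9091 to 9643. In CD43+ cells at the same step 1 gene of the list was called higher (EGR2) and 1 lower (NR4A3), with a median of -0.10, and the sum ranged over 6270 to 8674 on day 12 and 12147 to 13868 on day 16. Of all genes 10.4% were called in either direction at this step in CD43- cells and 9.05% in CD43+ cells. Against CD43- cells the list had a median of 0.62 on day 16 after -1.70, -1.44 and -1.37 on days 6, 9 and 12.

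Of 15 transcription factors that regulate VEGF receptor genes 4, 5, 9 and 7 were called lower and 2, 3, 2 and 3 higher. SOX17, a factor of arterial endothelium, fell most on days 6 and 9 (-2.77 and -6.05), and NR2F2, a factor of venous endothelium and mesenchyme, on days 12 and 16 (-6.65 and -5.70). The factors higher in CD43+ cells were TAL1 (2.81, 4.01, 3.08 and 2.38), GATA2 on days 6, 9 and 16 (3.09, 2.80 and 3.43) and MEF2C on days 9, 12 and 16 (3.42, 2.35 and 3.04), and TAL1 and GATA2 are shared by endothelium and blood. From day 2 to day 4, when 4 of the VEGF genes were called higher, 9 of the 15 were called higher and 1 lower, led by the ETS factor FLI1 (7.36, SE 0.37, adjusted p = 1.76e-14) and by FOXC1 (-3.60, SE 0.62, adjusted p = 4.37e-05). At that step 4.97% of all genes were called higher and 9.5% in either direction.

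Over the 11 replicated populations, the course of the means was compared between genes by Pearson's r of log2(value + 1), as a description over 11 points that share 1 normalization. Among the 9 genes FLT1 and FLT4 were most alike (r = 0.94), followed by KDR and NRP2 (0.90), and VEGFB and KDR least (0.02). VEGFC was most like PGF (0.87) and VEGFA most like VEGFC (0.83), and NRP1 reached at most 0.70, with PGF. Over the 8 sorted populations alone the order changed, with FLT1 and NRP2 most alike (0.967), then FLT1 with FLT4 and VEGFC with PGF (0.953 each), and NRP1 most like VEGFA (0.785).

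Outside the 9 genes, the most alike of all genes tested were named for each, from the top 3. They were MDFI (0.99), GIPC1 (0.98) and FAM92A1 (0.97) for KDR, CDH13 (0.97), KANK3 (0.97) and BGN (0.97) for FLT1, and CRIM1 (0.98), FBXW8 (0.98) and TTC28 (0.98) for FLT4. For NRP1 they were ARHGAP31 (0.96), SRGAP2C (0.96) and HGSNAT (0.96), and for NRP2 MAGED2 (0.96) and ADGRG6 (0.96), with an RNA gene of clone-based name between them. For the ligands they were PLXDC1 (0.95), CLMN (0.95) and BBS2 (0.94) with VEGFA, ZBTB4 (0.86) and MFI2-AS1 (0.86) with VEGFB, DSC3 (0.985), OPTN (0.98) and COL11A1 (0.98) with VEGFC, and OLFML1 (0.98), DDR2 (0.98) and PITX1 (0.98) with PGF. Over the 8 sorted populations alone, 0 of the 3 most alike genes stayed among the top 3 of any of the 9 except PGF, which kept 1 of 3.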

How the data were processed

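The RNA-seq table of H1 cells holds 34 samples, 33 of them in 11 populations with 3 replicates. Per the study's methods, the authors used bowtie2 and RSEM on an Ensembl index, corrected the tag counts for GC content with EDASeq, and ran DESeq2 with limits of 0.05 on the q-value and 4 on the fold change. GEO's processing notes name hg38, bcl2fastq, STAR 2.7, Bowtie2 and RSEM. The deposited values are these normalized counts rounded to whole numbers, treated here as a normalized score, since sorted values were identical in all 34 samples. They give no depth, and errors here come from replicates alone. RNA was sequenced at 2 providers, and which samples went where is not given in the sources used here, so no within-provider value could be computed. Whether reads were counted by strand is not given, so genes that overlap others or have antisense partners are uncertain.

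The test was limma (version 3.58.1, R 4.3.3) on log2(value + 1), with lmFit and trended eBayes. A joint model held the 33 replicated samples and no replicate block. It covered the 19788 genes that reached 10 in 3 or more samples, and 467 genes were not tested. P-values were adjusted by Benjamini-Hochberg over all genes tested, in 17 comparisons, and the script was tested on simulated data. The undifferentiated sample has no replicate and entered no test. The 9 genes, the gene lists and the comparisons were chosen with earlier results of these data known. All 9 genes were named in every comparison, and of the lists the called gene with the largest rise and fall, with other list members chosen after their values were seen. For each of the 9, the 3 genes of most similar course were ranked, and 1 of them is not reported here. Alternatives were other pseudocounts, filters, scaling, a fold of 2, robust eBayes, smaller fits, replicate blocks and leaving out each replicate. Replicate numbers come from the labels. For CD43- and CD43+ samples with the same number, the deviations from the population mean correlated at 0.198, 0.109 and 0.199 on day 6, which are taken as pairs, and at no more than 0.108 on the other days, where not every pair passed 0.1. Promoters came from RefSeq (GRCh38.p14), where 6 of 9 genes matched by symbol.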

Additional observations from a re-analysis of the deposited data

Results flagged for a closer look

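In all, 6 results stood out because the CD43 difference of a gene changed between days, tested as the change itself. From day 6 to day 9 the log2 difference between CD43+ and CD43- cells changed by -2.12 for KDR, -3.89 for FLT1, -1.72 for FLT4 and -3.12 for NRP2, each with an adjusted p-value below 0.05 by limma. From day 9 to day 12 it changed by -2.48 for KDR and by 3.46 for NRP1. The change of KDR from day 6 to day 9 was under 4-fold when 1 of 4 samples was left out: it was -1.63 without day 6 CD43- replicate 3, -1.94 without day 6 CD43+ replicate 3, -1.91 without day 9 CD43- replicate 1 and -1.90 without day 9 CD43+ replicate 2, with adjusted p-values of 0.014 to 0.0148. That of FLT4 was -2.37, above 4-fold, without day 6 CD43- replicate 1, which had the largest endothelial marker sum (171051). Without day 6 CD43- replicate 3 that of FLT4 was -1.07 and did not pass the test (adjusted p = 0.0924). The 3 NRP1 values of day 12 CD43+ cells moved with the macrophage marker sum, and the part of those transcripts in the change was not tested.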

How the results depend on the processing

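Counts of the 9 genes called stayed within 1.5 times in 264 repeats under other settings and moved further in 15. Single genes kept their sign and side of the threshold in 1620 repeats, newly passed it in 35, no longer did in 11 and turned sign in 28. With a fold of 2 in place of 4, more genes were called by construction: 6 in CD43+ against CD43- cells on day 6, 6 on day 2 against day 0, 7 on day 4 against day 2, 4 in day 6 CD43+ and 5 in day 6 CD43- cells against day 4, 5, 4 and 2 in CD43+ cells at the steps to days 9, 12 and 16, and 1 in CD43- cells from day 9 to day 12. With a pseudocount of 10, 0 were called in day 6 CD43+ cells (VEGFC -1.91) and 0 in day 6 CD43- cells (FLT4 1.98) against day 4, and VEGFC rose by 1.56 from day 2 to day 4. The cause was not tested. Leaving out 1 replicate gave 1 to 2 called genes in day 6 CD43+ cells against day 4, with 2 without day 4 replicate 2, and 0 to 3 in day 6 CD43- cells against day 4, with 0 without day 4 replicate 3 or CD43- replicate 1 and 3 without CD43- replicate 3.

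The values that turned sign were small and not called. With median-of-ratios scaling, NRP2 on day 6 was -0.12, VEGFA in day 6 CD43- cells against day 4 was 0.10, and PGF and FLT1 in CD43+ cells from day 9 to day 12 were 0.031 and 0.080. That scaling moved the median of all genes by -0.14 and -0.21 in the CD43 comparisons of days 6 and 9, 0.15 in CD43+ cells from day 9 to day 12 and 0.11 in the change of the CD43 difference at that step, and by less elsewhere. With a pseudocount of 0.1, VEGFC in CD43+ cells from day 6 to day 9 was 0.42. Without 1 replicate, the day 6 CD43 difference ranged from -0.14 to 0.068 for VEGFB and from -0.27 to 0.33 for NRP2, and VEGFA in day 6 CD43- cells against day 4 from -0.50 to 0.36. In CD43+ cells the ranges were -1.09 to 0.31 for VEGFC from day 6 to day 9, -0.19 to 0.22 for VEGFB, -0.073 to 0.83 for VEGFC, -0.25 to 0.067 for PGF and -0.27 to 0.12 for FLT1 from day 9 to day 12, and -0.0076 to 0.40 for VEGFB, -0.20 to 0.16 for PGF and -0.29 to 0.85 for NRP1 from day 12 to day 16.

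With the replicate number as a block, over the 33 samples or within day 6 alone, where the pairing was taken, 3 genes were called in the day 6 CD43 comparison as without it, and the block changed no other count. Low values such as those of VEGFC in CD43+ cells (0 to 13) have no depth behind them in this table, and high values such as those of KDR are tied and compressed.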
